A study of Homo sapiens with 24 samples.

Results

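The genes described here were the collagen chains and the enzymes and chaperone that modify, fold, trim and cross-link them in HepaRG cells replated at low density. All genes whose probe sets carry a single annotated symbol of a collagen chain, or the symbol P4HA1, P4HA2, PLOD1, PLOD2, PLOD3, LOX, LOXL1, SERPINH1, BMP1 or PCOLCE, were taken. That gave 42 of the 11963 genes with a single symbol on the array, 32 collagen chains and 10 enzymes or helpers. Each was represented by its probe set with the highest mean over the arrays. HepaRG is a human liver cell line whose cells can differentiate into hepatocyte-like and biliary-like cells and can return to a progenitor-like state. Cells were grown for 2 weeks in William's E medium with serum, penicillin, streptomycin, insulin and hydrocortisone, and for 2 more weeks with DMSO added. The hepatocyte-like cells were then detached selectively by mild trypsin treatment and seeded sparsely, which the labels call reprogramming. All groups are of this 1 cell line and share that history. They were collected at the start (0 h), at 1, 4 and 8 h, and again at 12, 16, 24 and 48 h, with 3 arrays at each time and 24 in all, and the labels describe no parallel culture that was left undisturbed, so time and replating cannot be told apart.

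Collagens are built from 3 chains wound into a triple helix. In the endoplasmic reticulum, prolyl 4-hydroxylases (P4HA1 and P4HA2 are catalytic subunits) stabilise the helix, lysyl hydroxylases (PLOD1, PLOD2, PLOD3) prepare the sites of later cross-links and sugars, and the chaperone encoded by SERPINH1 holds the folded helix until it leaves. Outside the cell, BMP1 with its enhancer PCOLCE trims fibrillar procollagens, and LOX and LOXL1 start the cross-links. Type IV chains form the network of basement membranes, and their genes lie in neighbouring pairs. Types I, II, III, V and XI form fibrils, type VI forms beaded filaments and type VII anchoring fibrils. In fibrotic liver, fibrillar collagens come mainly from activated stellate cells and other myofibroblasts, while a hepatocyte normally sits on little organised basement membrane.

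Promoter stretches are shown for the genes on which the results turn, from the RefSeq promoter table for GRCh38.p14, which held windows from 250 bases before to 50 bases after the start site for 32 of the 42 genes. COL4A1 and COL4A2 lie head to head on chromosome 13, with start sites 127 bases apart. The stretch between them is thus shared by a gene that rose and one that was never called, each read by its brightest probe set. The first line below is chr13:110307158-110307283 on the plus strand (the COL4A2 direction). COL4A6 and COL4A5 lie head to head on chromosome X with start sites 380 bases apart, and the second line is the 250 bases before the COL4A6 start site, chrX:108439459-108439708 on the minus strand. In both, capitals mark the CCAAT box, searched as CCAAT on either strand. It occurs once in the first, 105 bases before the COL4A2 start site, and 3 times in the second, at 145, 137 and 118 bases before the COL4A6 start site.
COL4A2: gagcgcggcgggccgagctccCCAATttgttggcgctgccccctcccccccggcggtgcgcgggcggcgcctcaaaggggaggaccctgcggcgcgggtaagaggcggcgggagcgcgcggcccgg
COL4A6: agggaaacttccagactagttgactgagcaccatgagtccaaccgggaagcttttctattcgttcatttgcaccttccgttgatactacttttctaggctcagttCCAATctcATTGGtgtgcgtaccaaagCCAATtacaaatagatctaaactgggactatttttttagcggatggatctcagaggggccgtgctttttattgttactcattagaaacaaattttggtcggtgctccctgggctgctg
The other pair belongs to 2 genes of folding and modification that were called higher at every time from 4 h. SERPINH1 is on chromosome 11 and the stretch is chr11:75562003-75562252, plus strand, with a heat shock element (GAANNTTC, a palindrome) in capitals 71 bases before the start site. PLOD2 is on chromosome 3 and the stretch is chr3:146161185-146161434, minus strand, with the core of a hypoxia response element (ACGTG on either strand) in capitals 200 and 146 bases before the start site.
SERPINH1: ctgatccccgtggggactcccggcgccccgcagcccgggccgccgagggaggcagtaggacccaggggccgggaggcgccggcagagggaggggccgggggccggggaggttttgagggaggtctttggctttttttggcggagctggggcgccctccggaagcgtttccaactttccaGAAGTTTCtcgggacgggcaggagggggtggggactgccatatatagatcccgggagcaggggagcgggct
PLOD2: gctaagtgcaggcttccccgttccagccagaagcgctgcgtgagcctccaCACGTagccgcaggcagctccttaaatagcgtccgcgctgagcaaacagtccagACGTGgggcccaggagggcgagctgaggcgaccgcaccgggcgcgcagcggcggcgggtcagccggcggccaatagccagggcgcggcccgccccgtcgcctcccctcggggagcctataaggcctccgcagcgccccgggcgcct
These letters are common. Over all 35116 windows of the table, 34.6% held CCAAT, 6.77% held GAANNTTC and 21.4% held ACGTG. Of the 32 genes here with a window, 13, 6 and 8 had a match in at least 1 window. The shares are per window and these counts per gene, some with several windows, so they cannot be compared directly. Besides SERPINH1, the heat shock letters occurred in windows of COL4A5, COL7A1 and PLOD1, each called lower at some time, and of COL4A6 and COL10A1. The hypoxia letters of PLOD2 also occurred in windows of LOX, P4HA1, COL5A1, COL11A2 and COL4A3, which were never called. They were found in SERPINH1 and in COL15A1, which did not pass the filter, as well. An AP-1 site (TGANTCA) was also searched and occurred in COL10A1 only. A match describes the sequence only and no binding was measured.

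Labelling started from the 3' ends of the RNA, each probe set gave 1 signal, and only differences of the same probe set between times can be compared. Each array had been scaled to a trimmed mean of 499.9. A gene was tested when its signal passed the 40th percentile of at least 3 arrays, a level of 58.08 to 91.34 signal units, and was called changed at a difference of at least 2-fold on the log2(signal + 18) scale with an adjusted p under 0.05 (limma, Benjamini-Hochberg over 9966 genes). Of 12 hepatocyte markers 11 were measured and all passed the filter, and ALB averaged 69447 at 0 h. Endothelial CDH5, leukocyte LYZ, biliary EPCAM, and PDGFRA and LRAT of stellate cells stayed below the 40th percentile on all 24 arrays, although 4 of 8 endothelial, 3 of 7 leukocyte, 6 of 9 biliary and 8 of 14 stellate cell and fibroblast markers with a probe set passed the filter. The ratio of the 3' to the 5' ACTB control probe sets was 1.02 to 2.12 on the later arrays and 2.03, 6.91 and 2.56 on 0 h replicates 1, 2 and 3, so the ranges overlapped and 0 h replicate 2 stood far apart. The part of this ratio in the comparisons with 0 h was not tested, and all 7 of those comparisons share the same 3 arrays.

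Of the 42 genes, 35 passed the filter (26 chains and 9 enzymes or helpers). COL15A1, COL19A1, COL4A4, COL8A1, COL9A1, COL9A3 and LOXL1 did not. Against 0 h, 5 genes rose at some time (SERPINH1, PLOD2, COL4A1, COL4A6, COL6A3) and 10 fell at some time (COL18A1, COL21A1, COL7A1, COL6A1, COL4A5, COL5A2, COL5A3, COL9A2, COL1A2, PLOD1). How many of all tested genes rose or fell at some time was not counted, so these numbers only list the genes. The numbers called higher and lower were 1 and 0 at 1 h, 4 and 1 at 4 h, 4 and 2 at 8 h, 4 and 6 at 12 h, 4 and 6 at 16 h, 5 and 5 at 24 h, and 3 and 5 at 48 h. The shares of all tested genes called higher and lower were 2.22% and 0.602% at 1 h, 7.6% and 7.1% at 4 h, 8.41% and 10.1% at 8 h, 8.72% and 10.6% at 12 h, 9.19% and 11.9% at 16 h, 10.4% and 11.2% at 24 h, and 9.82% and 11.7% at 48 h. Against these shares the counts of 35 genes are not a result about the group, and the values below concern individual genes. At 1 h no gene of the group was called lower by limma, and 6 were lower at an unadjusted p under 0.05. How many of all genes were lower at that threshold was not counted, so the 6 are not a result about the group. The median log2 change of the 35 genes was -0.09 at 4 h and -0.17 at 48 h, beside -0.16 and -0.12 over all genes. A moderated F-test over the 7 comparisons called 17 of the 35, against 58.9% of all genes.

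**Figure D1:**
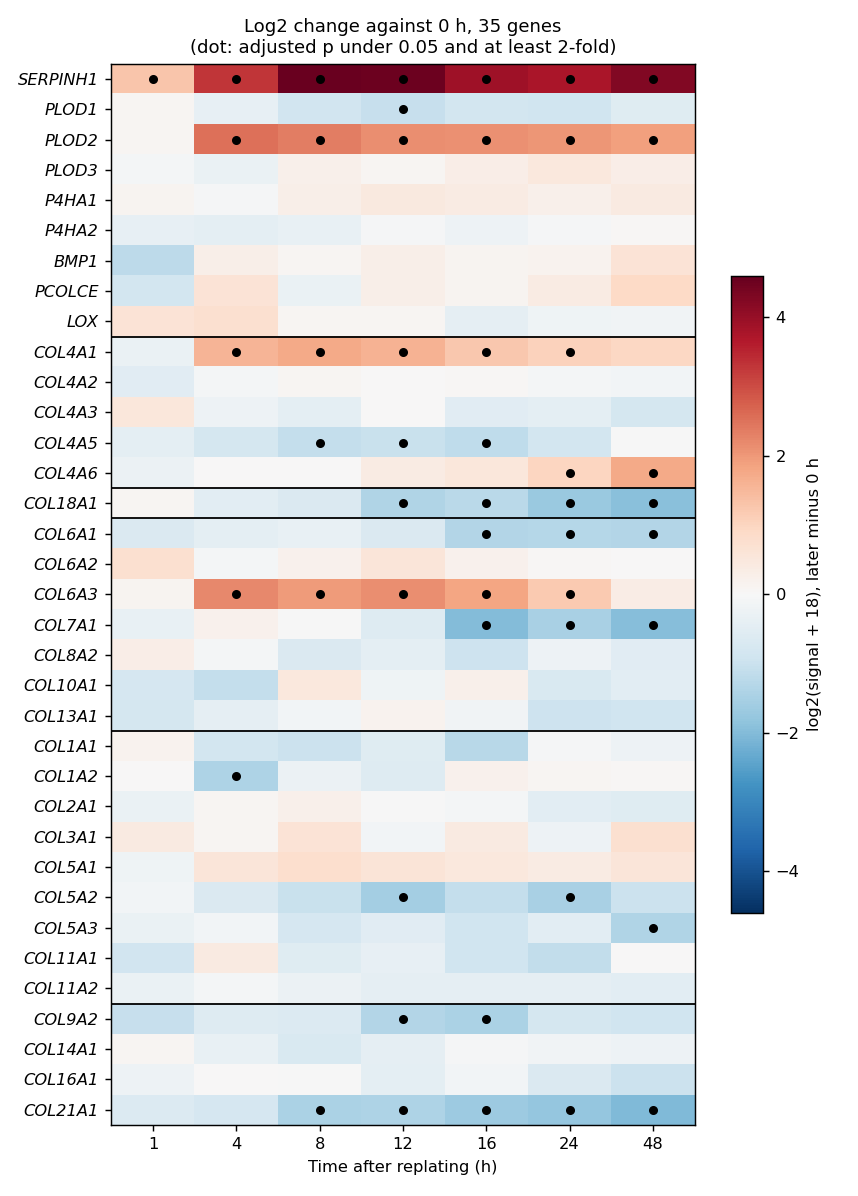
Log2 change against 0 h of the 35 tested genes (rows, grouped by lines into enzymes and helpers, type IV chains, COL18A1, types VI to XIII, fibrillar chains and fibril-associated chains) at 7 later times (columns), with dots on called changes. On the side of higher signal SERPINH1 carries dots from 1 h, PLOD2 from 4 h, and COL4A1 and COL6A3 from 4 to 24 h, while the dots on the side of lower signal gather from 12 h, when 6 genes were called lower.

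The steps between successive times held most calls before 8 h. Between 1 and 4 h, 6 genes rose (SERPINH1, PLOD2, COL4A1, COL6A3, BMP1, PCOLCE) and COL1A2 fell, where 6.48% and 4.44% of all genes did. Between 4 and 8 h, SERPINH1 and COL10A1 rose and limma called 0 genes lower (1 at an unadjusted p under 0.05), where 1.28% and 1.94% of all genes were called higher and lower. In the 4 later steps limma called 0 of the 35 genes in either direction, while 0.482%, 0.241%, 1.31% and 1.19% of all genes were called from 8 to 12, 12 to 16, 16 to 24 and 24 to 48 h. At an unadjusted p under 0.05 those steps held 1, 0, 1 and 2 genes with higher and 1, 4, 1 and 0 with lower signal. The shares of all genes at the unadjusted threshold were not counted, so these numbers cannot be judged against them. From 4 to 48 h, however, COL4A6 and COL1A2 rose and COL18A1, COL21A1, COL7A1 and COL6A3 fell, where 8.47% and 8.97% of all genes did.

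SERPINH1, which encodes the collagen-specific chaperone, had the largest change among the 35 genes. Its signals were 14.4, 16.0 and 18.1 at 0 h, 94.99, 37.0 and 72.7 at 1 h, 309.9, 379 and 268 at 4 h and 567, 934 and 921 at 8 h. They were 794, 718 and 746 at 12 h, 638, 394 and 479 at 16 h, 458, 441 and 435 at 24 h and 747, 782 and 442 at 48 h. All 21 later arrays lay above all 3 at 0 h, and signals were highest at 8 and 12 h. The log2 change against 0 h was 1.27 ± 0.26 (SE; adjusted p = 0.0013) at 1 h, 3.29 ± 0.26 (SE; adjusted p = 5.9e-12) at 4 h and 4.56 ± 0.26 (SE; adjusted p = 2.1e-15) at 8 h, and still 4.26 ± 0.26 (SE; adjusted p = 4.3e-15) at 48 h. It was the only gene of the group called at 1 h, and that call was lost with a pseudocount of 73.8 (0.64, adjusted p = 0.067) and when only the 0 and 1 h arrays entered the fit (adjusted p = 0.32). The 0 h signals lay below the pseudocount or just above it, so the size of the change depends on it. At 8 h it was 5.61 with no pseudocount and 3.26 with a pseudocount of 73.8.

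PLOD2, the lysyl hydroxylase that acts on the ends of fibrillar collagens, rose between 1 and 4 h and stayed high. Its signals were 1322, 1358 and 1061 at 0 h and 1504, 1203 and 1298 at 1 h, which overlapped, then 7167, 7689.6 and 7063 at 4 h and 6454, 6537 and 6021 at 8 h. They were 5201, 6186 and 5276 at 12 h, 5598, 5534 and 5088 at 16 h, 5169, 4768 and 5449 at 24 h and 3018, 5245 and 6428 at 48 h. From 4 h on, every array lay above every array of 0 and 1 h, with the widest spread at 48 h. The log2 change against 0 h was 2.54 ± 0.165 (SE; adjusted p = 5.7e-14) at 4 h and 1.90 ± 0.165 (SE; adjusted p = 2.7e-11) at 48 h. The gene's other probe set gave 2.10 at 4 h and 1.52 at 48 h.

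The other 2 lysyl hydroxylase genes did not rise 2-fold at any time. PLOD1, which hydroxylates lysines within the helix, had signals of 239.6, 229 and 308 at 12 h, against 521, 619 and 536 at 0 h, and these did not overlap. It changed by -1.07 ± 0.222 on the log2 scale (SE; adjusted p = 0.00022) at 12 h. At 8, 16 and 24 h its differences of -0.89, -0.84 and -0.93 had adjusted p-values of 0.0016, 0.0027 and 0.00092 but were below 2-fold. The 12 h change was also below 2-fold without 0 h replicate 2 (-0.99), without 12 h replicate 2 (-0.99) and with arrays centred on their median (-0.87). PLOD3, which adds sugars to hydroxylysine as well, ranged from 953 to 2293 over the 24 arrays and reached 0.50 ± 0.152 (SE; adjusted p = 0.0084) at 24 h, below 2-fold. Within arrays, the log2 difference PLOD2 minus PLOD1 was larger by 2.91 at 4 h, 3.23 at 8 h and 2.47 at 48 h than at 0 h. The groups did not overlap with 0 h at any of these times. Each exact two-sided permutation test gave p = 0.1, the smallest that 3 against 3 arrays allow.

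The prolyl 4-hydroxylase subunits were not called at any time. P4HA1 had signals of 459, 307 and 467 at 8 h, against 281, 459 and 279 at 0 h, and its groups overlapped with 0 h at every time. The 95% confidence interval of its log2 change at 8 h was -0.19 to 0.74. P4HA2 had 1672, 1507 and 1362 at 4 h, against 2419, 1952 and 1885 at 0 h. Those groups did not overlap, and the change of -0.45 ± 0.142 (SE; adjusted p = 0.013) stayed below 2-fold. By 48 h it had returned to 2422, 1714 and 2426, with a log2 change of 0.06 ± 0.142 (SE; adjusted p = 0.78).

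Among the genes that act outside the cell, BMP1 and PCOLCE were called in 1 step and in no comparison with 0 h. BMP1 had signals of 249.7, 272 and 98.6 at 4 h, against 155, 25.4 and 42.4 at 1 h, and these overlapped. Its log2 change of 1.44 ± 0.418 (SE; adjusted p = 0.0095) turned to -0.90 with another of its probe sets. A further probe set kept the sign, with log2 changes against 0 h of -1.02 at 1 h and -0.71 at 4 h. With the brightest probe set the change was 2.03 without 1 h replicate 1. It was between 1.03 and 1.27 with adjusted p-values of 0.05 to 0.096 without 1 h replicate 2 or 3 or without 4 h replicate 1 or 2. PCOLCE had 343, 195 and 125 at 4 h, against 47.7, 124 and 39.4 at 1 h, without overlap. Its change of 1.45 ± 0.463 (SE; adjusted p = 0.019) lost the call without 1 h replicate 1 (1.30), 1 h replicate 3 (1.20) or 4 h replicate 1 (1.10). LOX, the lysyl oxidase, lay above the 40th percentile on 8 of 24 arrays, ranged from 9.17 to 150.5 and was never called.

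**Figure D2:**
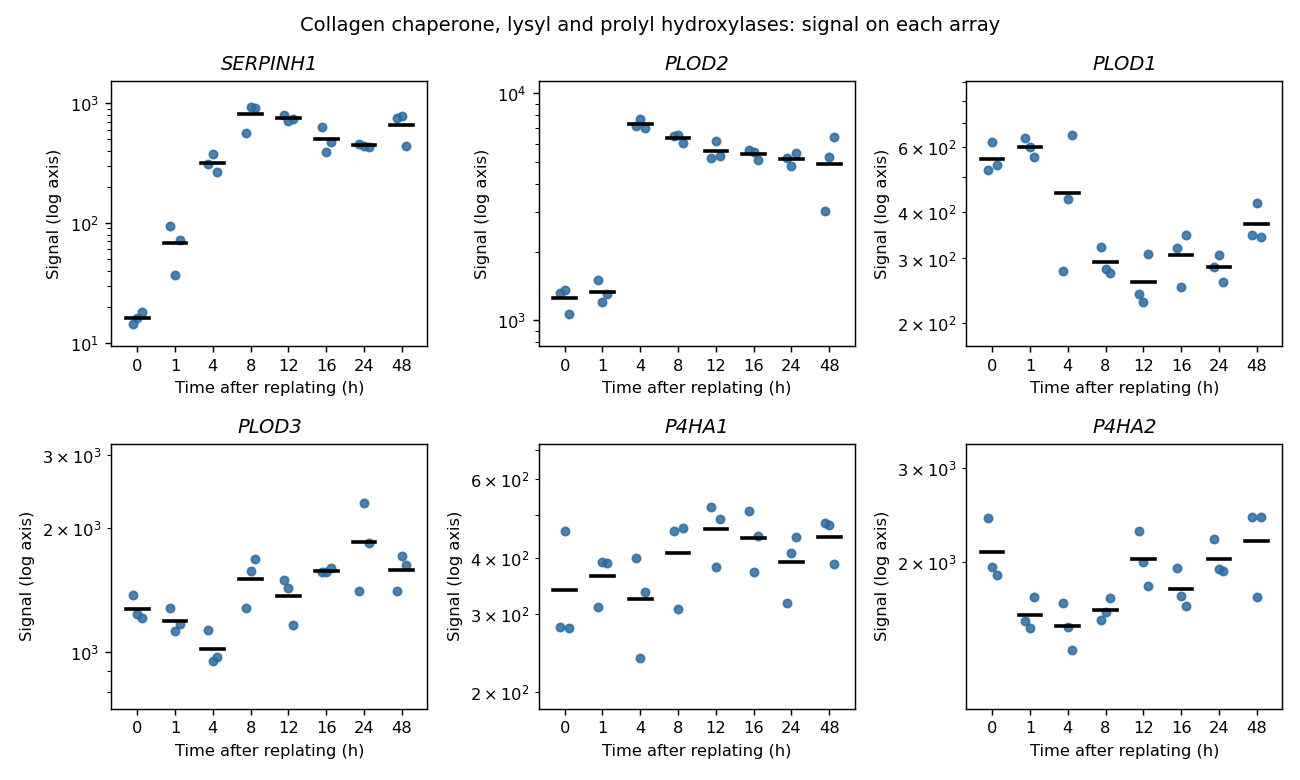
Signal on each of 24 arrays (points, log axis with its own range in each panel) and mean of the 3 arrays of a time (bars) for the chaperone gene, 3 lysyl hydroxylase genes and 2 prolyl 4-hydroxylase genes, over hours after replating. SERPINH1 and PLOD2 are higher from 4 h on in every array, PLOD1 is lowest at 12 h, and the P4HA1 and P4HA2 points at 48 h overlap those at 0 h.

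The type IV chains did not all move one way. COL4A1 rose from 4 h, COL4A2 was not called at any time, COL4A5 fell and returned, and COL4A6 rose late. COL4A3 lay above the 40th percentile on 3 of 24 arrays and was not called, and COL4A4 did not pass the filter. Other COL4A3 probe sets that passed the filter, also dim, had log2 changes from -1.85 to 0.73 at 8 h. The absence of a call for COL4A3 thus rests on its brightest probe set.

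COL4A1 and COL4A2 encode the chains of the most widespread type IV network. COL4A1 had signals of 436, 531 and 352 at 0 h and 302, 374 and 366 at 1 h, then 1369.8, 1317 and 1262 at 4 h and 1591, 1389.8 and 1503 at 8 h. It had 1608, 1342 and 1119.6 at 12 h, 1080.2, 1078 and 1005 at 16 h, 928, 1001 and 837 at 24 h and 825, 844 and 912 at 48 h. Every array from 4 h on lay above every array at 0 h, with the highest mean at 8 h. The log2 change against 0 h was 1.74 ± 0.155 (SE; adjusted p = 7.9e-11) at 8 h and 1.05 ± 0.155 (SE; adjusted p = 1.2e-06) at 24 h, and 0.96 ± 0.155 (SE; adjusted p = 6.1e-06) at 48 h, just below 2-fold. The 24 h change was below 2-fold without 0 h replicate 3 (0.91) or 24 h replicate 2 (0.99). The gene's dimmer probe set gave 1.64 at 8 h but -0.39 at 16 h, so the values after 8 h differ between the probe sets.

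COL4A2 had signals of 823, 932 and 864 at 8 h, against 741, 1002 and 728 at 0 h, and these overlapped. Its log2 change at 8 h was 0.10 ± 0.196 (SE; adjusted p = 0.75), with a 95% confidence interval of -0.30 to 0.49. The within-array log2 difference COL4A1 minus COL4A2 was 0.76 ± 0.18 at 8 h, against -0.88 ± 0.14 at 0 h (SD, n = 3 each), larger by 1.65. At 48 h it was larger than at 0 h by 1.08. From 4 h on no array overlapped with those at 0 h, and each exact two-sided permutation test gave its smallest possible p of 0.1. The second, dimmer COL4A2 probe set had a log2 change of 0.75 at 8 h and 1.30 at 12 h, so the absence of a call rests on the brighter probe set. The difference between the genes also depends on the probe sets. The dimmer ones of COL4A1 and COL4A2 changed by 1.64 and 0.75 at 8 h. At 12 h they changed by 0.905 and 1.30 and at 48 h by 0.46 and 0.75, with COL4A1 below COL4A2 at both times.

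COL4A5, which forms networks with COL4A6 or with COL4A3 and COL4A4, had signals of 802, 1307 and 982 at 0 h, 536, 569 and 614 at 4 h, 599.9, 404 and 415 at 8 h and 379, 501 and 451 at 16 h. At 48 h they were 1087, 937 and 1005. The groups from 4 to 24 h lay wholly below 0 h, while 48 h overlapped with it. It changed by -1.09 ± 0.193 at 8 h, -1.01 ± 0.193 at 12 h and -1.16 ± 0.193 at 16 h on the log2 scale (SE; adjusted p = 2.9e-05, 7.4e-05 and 8.9e-06), and its change at 48 h was -0.00 ± 0.193 (SE; adjusted p = 0.99). Without 0 h replicate 2, the array with the ACTB ratio of 6.91, these 3 changes were -0.91, -0.83 and -0.98, below 2-fold with adjusted p-values of 0.0008, 0.0019 and 0.00029. Without 8 h replicate 2 the first was -0.99, and without 12 h replicate 1 or 3 the second was -0.98 or -0.95. Centring each array on its median also left them below 2-fold (-0.92, -0.81 and -0.89).

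COL4A6 had signals of 138, 345 and 202 at 0 h, 194, 269 and 196 at 8 h, 447, 454 and 437 at 24 h and 584, 759 and 971 at 48 h. The arrays of 24 and 48 h lay above all at 0 h. It rose by 1.00 ± 0.284 (SE; adjusted p = 0.005) on the log2 scale at 24 h and 1.74 ± 0.284 (SE; adjusted p = 6.9e-06) at 48 h. The 24 h value sat at the 2-fold line and lost the call without 0 h replicate 1 (0.71), 0 h replicate 3 (0.96), 24 h replicate 1 (1.00) or 24 h replicate 2 (0.99). With another probe set of the gene the 48 h change was 0.85 and not called. Within arrays, COL4A6 minus COL4A5 was -0.41 ± 0.42 at 48 h, against -2.15 ± 0.27 at 0 h (SD, n = 3 each), larger by 1.74. This difference was larger than at 0 h by 0.83 at 4 h and 1.85 at 24 h, without overlap from 4 h on (exact two-sided permutation p = 0.1 at each time). At 8, 12 and 16 h COL4A5 was called lower and COL4A6 was not called, and at 48 h COL4A6 was called higher and COL4A5 was not called.

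**Figure D3:**
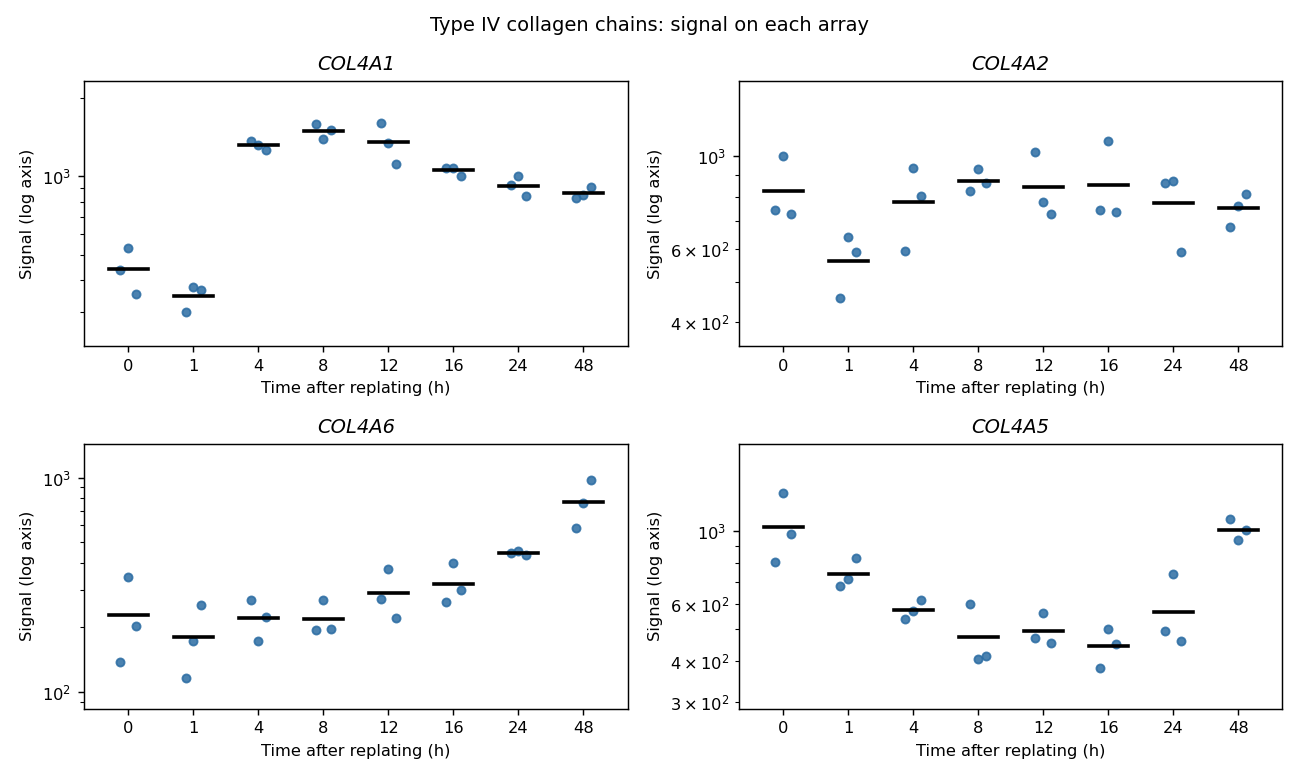
Signal on each array (points, log axis with its own range in each panel) and mean of 3 arrays (bars) for 4 type IV collagen genes over hours after replating. COL4A1 is higher from 4 h on, COL4A2 overlaps its 0 h arrays at 8 h, COL4A6 is highest at 48 h, and COL4A5 is lowest at 16 h and back among its 0 h arrays at 48 h.

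**Figure D4:**
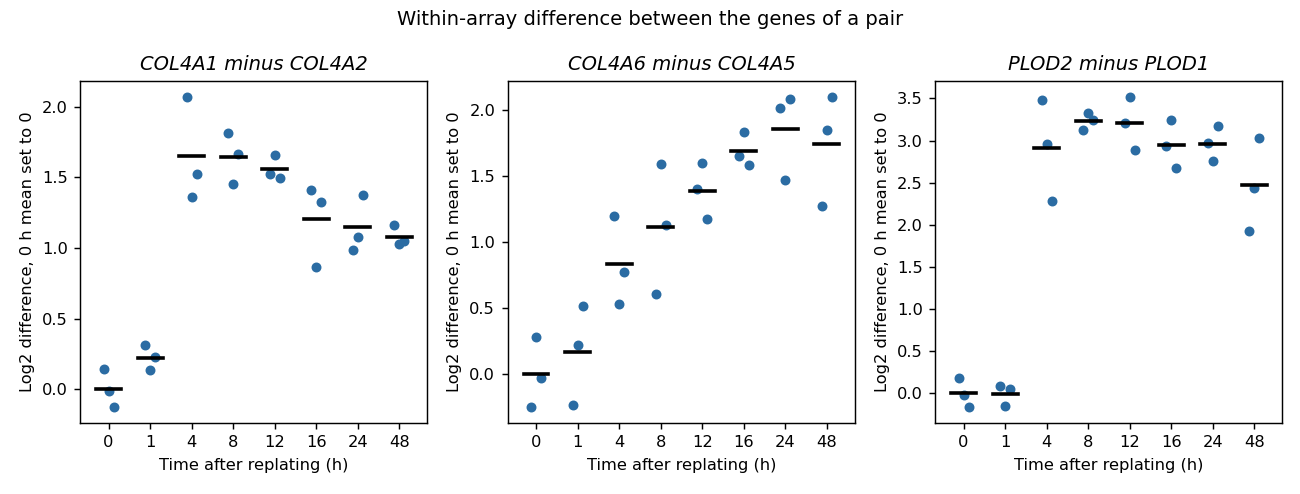
Within-array difference in log2(signal + 18) between 2 genes on each array (points), with the 0 h mean set to 0, and the mean of 3 arrays (bars), over hours after replating. COL4A1 minus COL4A2 is 1.65 above 0 h at 4 and 8 h and declines to 1.08, COL4A6 minus COL4A5 climbs to 1.85 at 24 h, and PLOD2 minus PLOD1 reaches 3.23 at 8 h. Each gene is read by its brightest probe set.

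COL18A1, a basement membrane collagen whose end fragment is endostatin and which hepatocytes make in normal liver, was called lower from 12 h on. Its signals were 1807, 1041 and 1816 at 0 h, 1647, 1631 and 1531 at 1 h, 1008, 1124 and 1094 at 4 h, 885, 1137 and 849.7 at 8 h, 656, 511 and 562 at 12 h, 672, 634 and 561 at 16 h, 535, 487 and 335 at 24 h and 297, 453 and 410.3 at 48 h. From 12 h on all arrays lay below all at 0 h, and 0 h replicate 2 was the lowest at that time. It changed by -1.37 ± 0.195 at 12 h and by -1.93 ± 0.195 at 48 h on the log2 scale (SE; adjusted p = 8.4e-07 and 7.4e-10). Its other probe set gave -1.47 and -1.90, and the 16 h change of -1.26 was -0.98 with arrays centred on their median. Among hepatocyte markers, 11 of 11 tested were lower at 48 h, where 11.7% of all genes were. ALB, the main plasma protein, averaged 32973 at 48 h and 69447 at 0 h, and TTR, which carries thyroid hormone, 22958 at 48 h and 73038 at 0 h.

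Type VI chains split. COL6A3, the long chain of the microfibril, had signals of 16.2, 22.4 and 5.59 at 0 h and 8.12, 38.4 and 11.1 at 1 h, then 134, 97.5 and 168 at 4 h, 94.7, 87.0 and 148 at 8 h, 106, 112 and 158 at 12 h and 132, 71.1 and 91.0 at 16 h. At 24 h they were 88.5, 86.6 and 18.2, and at 48 h 37.7, 25.2 and 9.03, which overlapped with 0 h. The rise was transient. It was 2.22 ± 0.472 (SE; adjusted p = 0.00041) at 4 h and 2.15 ± 0.472 (SE; adjusted p = 0.00043) at 12 h on the log2 scale, and the change at 48 h was 0.33 ± 0.472 (SE; adjusted p = 0.62). From 4 to 48 h it fell by 1.89 ± 0.472 (SE; adjusted p = 0.002). The signals are dim, so the 4 h change was 3.36 with no pseudocount and 1.22 with one of 73.8. The larger pseudocount ended the 16 h call (0.95). The 24 h call was lost without 0 h replicate 1 (1.26) or 3 (0.99) or 24 h replicate 1 (0.95) or 2 (0.96). This gene has a single probe set.

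COL6A1 had signals of 168, 231 and 152 at 16 h and 158, 257 and 152 at 48 h, against 398, 486 and 606 at 0 h, without overlap. It changed by -1.35 ± 0.279 at 16 h, -1.30 ± 0.279 at 24 h and -1.33 ± 0.279 at 48 h on the log2 scale (SE; adjusted p = 0.00018, 0.0003 and 0.00023). Without 24 h replicate 2 the 24 h change was -0.98. The other probe sets of COL6A1, all dimmer, did not give 1 answer. One of them had changes of 0.87, 0.61 and 0.52 at these times, opposite in sign, and 3 others were lower by sizes mostly not called. COL6A2 lay above the 40th percentile on 10 of 24 arrays and was not called.

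COL7A1, the anchoring fibril chain, had signals of 178, 121 and 338 at 0 h, 209, 138 and 237 at 8 h, 6.57, 86.2 and 40.7 at 16 h, 56.5, 85.2 and 38.0 at 24 h and 106, 22.2 and 15.5 at 48 h. Arrays from 16 h on lay below all at 0 h. It changed by -2.01 ± 0.479 at 16 h, -1.50 ± 0.479 at 24 h and -1.95 ± 0.479 at 48 h on the log2 scale (SE; adjusted p = 0.001, 0.012 and 0.0013). The 24 h call was lost without 0 h replicate 3 (-1.13) or 24 h replicate 3 (-1.28), and the 48 h change was -2.54 without 48 h replicate 1. With the gene's other probe set the 48 h change was -0.29 and not called. COL10A1, a short network chain of growth cartilage, was called only in the step to 8 h, with 102, 80.7 and 53.1 at 8 h, against 20.7, 11.4 and 10.2 at 4 h. That change of 1.57 ± 0.509 (SE; adjusted p = 0.043) lost the call when any of 5 arrays, 4 h replicates 1 to 3 and 8 h replicates 1 and 2, was left out (1.40 to 1.71). COL10A1 lay above the 40th percentile on 4 of 24 arrays. Its other probe set, which did not pass the filter, averaged 26.7 at 4 h and 28.7 at 8 h.

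The fibrillar chains of type I and III, the bulk of scar collagen, gave low signals. COL1A1 was read by a probe set with possible cross-hybridisation, lay above the 40th percentile on 20 of 24 arrays, ranged from 7.46 to 267.4 and was not called. COL3A1, also read by such a probe set, was above that level on 9 arrays, ranged from 4.24 to 110.9 and was not called. COL1A2 had signals of 6.02, 17.8 and 16.7 at 4 h, against 78.0, 30.0 and 105 at 0 h, and stood at 26.9, 103 and 97.0 at 48 h. Its 3 arrays of 4 h lay below all of 0 h, with a change of -1.41 ± 0.524 on the log2 scale (SE; adjusted p = 0.037). The call was lost without 0 h replicate 1 (-1.31) or 3 (-1.13), or without 4 h replicate 1 (-1.23), 2 (-1.52) or 3 (-1.50), and with quantile normalization (-1.30). The fall from 1 to 4 h (-1.44 ± 0.524 (SE; adjusted p = 0.04)) was lost without any 1 of the 6 arrays compared (-1.26 to -1.57), and the rise from 4 to 48 h (1.46 ± 0.524 (SE; adjusted p = 0.029)) without 48 h replicate 2 (1.21) or 3 (1.25) or 4 h replicate 1 (1.28).

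Type V chains regulate the diameter of type I fibrils. COL5A1 had 371, 662 and 527 at 8 h, against 219.9, 427 and 258 at 0 h, with overlap and a change of 0.77 ± 0.248 (SE; adjusted p = 0.014), below 2-fold. A dimmer probe set of the same gene averaged 436.6 at 8 h and 156.9 at 0 h, a log2 change of 1.65. COL5A2 had 22.0, 4.49 and 79.7 at 12 h and 36.9, 15.1 and 36.0 at 24 h, against 115, 138 and 88.7 at 0 h, without overlap. It changed by -1.55 ± 0.483 at 12 h and -1.50 ± 0.483 at 24 h on the log2 scale (SE; adjusted p = 0.011 and 0.013). The first was lost without 12 h replicate 2 (-1.06) and the second without 0 h replicate 2 (-1.37) or 24 h replicate 2 (-1.26). The gene's other probe set gave -0.90 at 12 h (adjusted p = 0.33), not called, and -1.80 at 24 h (adjusted p = 0.036). COL5A3 had 66.5, 11.8 and 25.0 at 48 h, against 65.5, 141 and 129 at 0 h, which overlapped. Its change of -1.39 ± 0.555 (SE; adjusted p = 0.046) was not called without 0 h replicate 2 (-1.22) or 3 (-1.28), 48 h replicate 2 (-1.05) or 48 h replicate 3 (-1.32).

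Of the fibril-associated chains, COL21A1 was called lower at every time from 8 h. Its signals were 237, 262 and 198 at 0 h, 172, 123 and 99.5 at 4 h, 57.5, 70.6 and 93.5 at 8 h, 26.7, 103 and 68.3 at 16 h, 33.6, 109 and 38.6 at 24 h and 97.9, 72.8 and 3.03 at 48 h. At every later time all 3 arrays lay below all 3 at 0 h. It changed by -1.46 ± 0.501 at 8 h, -1.79 ± 0.501 at 24 h and -2.04 ± 0.501 at 48 h on the log2 scale (SE; adjusted p = 0.021, 0.0044 and 0.0013). The 48 h change was -1.28 without 48 h replicate 3, and the change from 4 to 48 h of -1.28 became -0.51 without that array and lost its call without any 1 of the 4 h arrays (-1.09 to -1.44). The 8 h call was lost without 0 h replicate 1 or 2 or 8 h replicate 1 or 2 (-1.32 to -1.44), the 12 h call without 0 h replicate 1 or 2 or 12 h replicate 3 (-0.97 to -1.39), and the 16 h call without 16 h replicate 1 (-1.28). With no pseudocount the calls at 8, 12 and 16 h were lost (-1.67, -1.65 and -2.01), and with a pseudocount of 73.8 the 12 h change was below 2-fold (-0.99). COL9A2, a chain found on cartilage fibrils, had 6.73, 78.1 and 70.0 at 12 h and 53.1, 10.2 and 65.2 at 16 h, against 137, 109.9 and 154 at 0 h, without overlap. Its changes of -1.34 ± 0.493 (SE; adjusted p = 0.03) and -1.45 ± 0.493 (SE; adjusted p = 0.018) were not called with quantile normalization (-1.14 and -1.17). They were also lost without 0 h replicate 3 (-1.25 and -1.36), the first without 0 h replicate 1 (-1.32) or 12 h replicate 1 (-0.71) and the second without 16 h replicate 2 (-0.97).

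**Figure D5:**
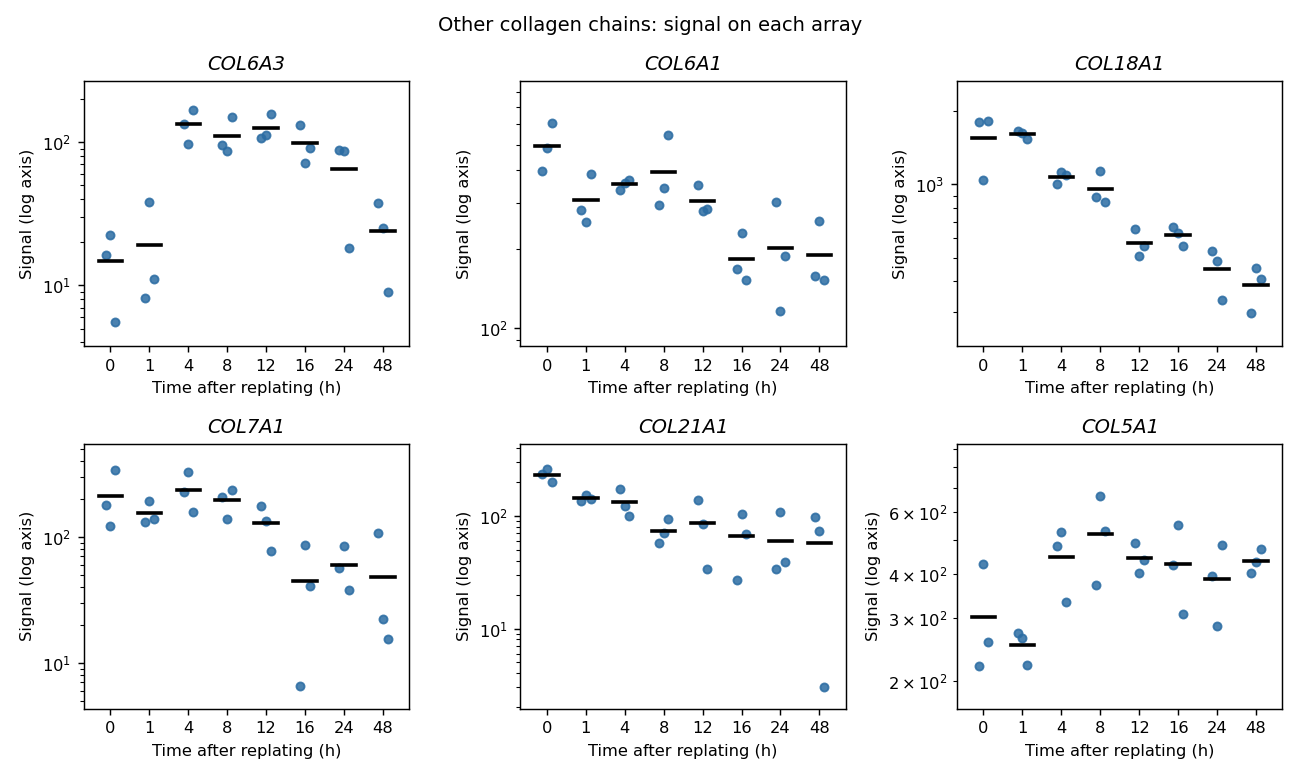
Signal on each array (points, log axis with its own range in each panel) and mean of 3 arrays (bars) for 6 other collagen chain genes over hours after replating. COL6A3 is higher from 4 to 16 h and overlaps its 0 h arrays at 48 h, while COL6A1, COL18A1, COL7A1 and COL21A1 lie below all of their 0 h arrays at 48 h.

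The remaining chains that passed the filter, COL11A1, COL11A2, COL13A1, COL14A1, COL16A1, COL2A1 and COL8A2, were not called in any comparison. Their smallest adjusted p against 0 h was 0.092 (COL8A2). COL11A2 was above the 40th percentile on all 24 arrays, with log2 changes between -0.47 and -0.08, and COL13A1 was read by a probe set with possible cross-hybridisation.

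Of 26 other genes of collagen folding, export and cross-linking, 17 were tested. At 12 h 3 were higher and 3 lower, beside 8.72% and 10.6% of all genes. At 48 h 2 were higher and 4 lower, beside 9.82% and 11.7% of all genes. MIA3, which loads large collagens into transport carriers, averaged 156.6 ± 14.6 at 48 h and 451.7 ± 54.8 at 0 h (SD, n = 3 each), a log2 change of -1.42 (adjusted p = 6.6e-05). TGM2, a cross-linking transglutaminase, was higher at 12 h (1.24, adjusted p = 7.3e-06) and at 48 h stood at -0.09. P3H4, a lysyl hydroxylase partner, was higher at 12 h (1.45, adjusted p = 0.024), and LOXL2, a lysyl oxidase, lower at 12 h (-2.01, adjusted p = 0.0032), both on dim signals. LOXL2 did not keep 1 course, with means of 15.4, 26.9, 134 and 13.1 at 1, 4, 8 and 12 h beside 108 at 0 h. Chosen after its values were seen, P4HB, the shared subunit of prolyl 4-hydroxylase, averaged 7473 at 48 h and 15370 at 0 h (-1.04, adjusted p = 7.8e-09). P3H2, a prolyl 3-hydroxylase that acts on type IV collagen, was chosen in the same way and averaged 1674 at 48 h and 263.7 at 0 h (2.64, adjusted p = 1.7e-08).

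Several partners of the collagen fibril rose, and others fell. Of 12 tested proteoglycans and glycoproteins of the fibril, 6 were higher and 2 lower at 16 h, beside 9.19% and 11.9% of all genes, with a list median of 0.55 against -0.16 over all genes. POSTN, a matrix protein that binds collagen, averaged 2783 ± 297 at 16 h and 176.0 ± 44.2 at 0 h (SD, n = 3 each), and its log2 change was 3.87 (adjusted p = 2e-18). TNC, a glycoprotein of remodelling matrix, had a change of 4.59 (adjusted p = 1.1e-14), THBS1, which can activate TGF-beta, 3.22 (adjusted p = 2.1e-14) and the small proteoglycan gene DCN 1.81 (adjusted p = 1.2e-09). The 2 genes lower at 16 h, named after their values were seen, were FN1 (-1.12, adjusted p = 2e-06) and MATN2 (-1.54, adjusted p = 2.9e-05). FN1 averaged 24252.5 at 0 h and 11229.5 at 16 h. DCN and FN1 were each read by a probe set with possible cross-hybridisation. Of 12 tested collagen-degrading proteases and inhibitors, 5 were higher and 0 lower at 8 h by limma, where 8.41% and 10.1% of all genes were. The stromelysin gene MMP3 had a log2 change of 5.67 at 8 h (adjusted p = 4.9e-22) and 0.34 at 48 h (adjusted p = 0.13). MMP10 had 3.70 at 8 h, the membrane collagenase gene MMP14 1.12 and the inhibitor gene TIMP1 1.43 (adjusted p = 8.8e-11, 3.7e-06 and 1.3e-09).

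Of 10 tested collagen receptors, 2 were higher and 1 lower at 16 h, beside 9.19% and 11.9% of all genes. ITGA2, the collagen-binding integrin chain, had a log2 change of 1.59 at 16 h (adjusted p = 4e-04), ITGA3, better known as a laminin receptor chain, 1.32 (adjusted p = 0.0011) and ITGA10 -1.11 (adjusted p = 0.0015). Of 14 tested partners of the basement membrane, 2 were higher and 2 lower at 16 h, beside the same 9.19% and 11.9% of all genes. LAMB3, a laminin chain of epithelia, had 2.15 (adjusted p = 1.1e-07) and the perlecan gene HSPG2 1.98 (adjusted p = 0.0053), while the laminin chains LAMA2 had -1.63 (adjusted p = 2.6e-05) and LAMB2 -1.13 (adjusted p = 0.0019).

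PLOD2 and P4HA1 are known targets of hypoxia-inducible factors, and of 17 tested genes of that response 5 were higher and 1 lower at 4 h, where 7.6% and 7.1% of all genes were. The factor's own gene HIF1A had a log2 change of 1.88 at 4 h (adjusted p = 1.4e-12), EGLN3, which hydroxylates it, 3.07 (adjusted p = 1e-08), the glycolysis regulator PFKFB3 2.85 (adjusted p = 3e-14) and DDIT4, an inhibitor of mTOR signalling, -1.68 (adjusted p = 1.7e-09). Of 15 tested targets and regulators of TGF-beta, a cytokine that induces collagen genes in fibroblasts, 4 were higher and 1 lower at 4 h. The lower gene, named after its values were seen, was CCN2, a matricellular protein gene and target of TGF-beta (-1.32, adjusted p = 1e-06). TGFB2 itself had a change of 4.33 (adjusted p = 1.6e-12), PMEPA1, a feedback inhibitor, 2.94 (adjusted p = 2e-07), the activin subunit gene INHBA 2.90 (adjusted p = 0.00047) and the signal transducer SMAD3 1.61 (adjusted p = 3.8e-06). At 0 h TGFB2, PMEPA1 and INHBA averaged 20.8, 35.9 and 7.09, below the 40th percentile of those arrays, so the sizes of their changes depend on the pseudocount. Whether either response bears on the collagen genes was not tested.

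Markers of other cells moved beside the collagen changes. Of 15 stellate cell and fibroblast markers 14 had a probe set and 8 passed, and their summed signal was 3783 to 5100 at 48 h and 2211 to 2420 at 0 h. At 48 h 3 of the 8 were called higher and 1 lower, beside 9.82% and 11.7% of all genes. The actin gene ACTA2 (log2 change 1.17 at 48 h, adjusted p = 6e-08) and the proteoglycan genes LUM (2.08, adjusted p = 4.8e-08) and DCN (1.34, adjusted p = 3.9e-07) rose, and RELN fell (-1.74, adjusted p = 0.013), while PDGFRA and LRAT were below the 40th percentile on every array. DCN was read by a probe set with possible cross-hybridisation. The other 4 that passed were not called (PDGFRB -0.87, DES -0.28, THY1 -0.44 and MMP2 -0.77), and the median of the 8 was -0.36, against -0.12 over all genes, so the larger sum came from ACTA2, LUM and DCN. Of 11 biliary markers 9 had a probe set and 6 passed, and their sum was 21709 to 27534 at 48 h and 10544 to 13088 at 0 h. At 48 h 2 of the 6 were called higher, beside 9.82% of all genes, with a list median of 0.45 against -0.12. More were called at 4 h, 4 of the 6, beside 7.6% of all genes. KRT19, a keratin of bile duct cells, had a log2 change of 2.37 at 4 h (adjusted p = 1.9e-14). At 4 h KRT7, another such keratin, had 1.60, SOX9, a duct transcription factor, 1.01, and the phosphoprotein gene SPP1 1.03 (adjusted p = 0.002, 2.5e-05 and 0.00014). The sum over 8 endothelial markers, of which 4 passed, was 167.2 to 278.2 at 48 h and 529.4 to 708.5 at 0 h, and that over 7 measured of 8 leukocyte markers, of which 3 passed, 311.8 to 380.8 at 48 h and 592.9 to 858.1 at 0 h. At 48 h 1 of 4 tested endothelial markers, KDR (-2.15, adjusted p = 0.0039), was called lower. Of 3 tested leukocyte markers 2 were, CD163 (-1.63, adjusted p = 0.024) and CD3E (-1.41, adjusted p = 0.029). The share of all genes called lower at 48 h was 11.7%, and lists of 4 and 3 genes are too short for a result about a cell type. The endothelial and leukocyte sums are over dim signals. The 40th percentile of the arrays was itself lower at 48 h (58.1 to 69.0) than at 0 h (81.9 to 91.3), and its part in these sums was not tested. Fewer cells of a type and less RNA per cell cannot be told apart in these bulk samples, and the part of such cells in the collagen changes was not tested.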

How the data were processed

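A 1-colour human array with 22283 probe sets (68 controls) was used. Its deposited intensity values, on a linear scale, came from MAS5 according to the submitters' processing notes, with version and target level not given in the sources used here. Arrays had a common trimmed mean and no 2 were identical. Groups and replicate numbers came from the sample labels, which do not say whether replicates were separate cultures, so the p-values cover the spread between these arrays alone, and that spread may be technical. Precision is limited by the number of arrays.

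Signals entered as log2(signal + 18), 18 being the 20th percentile of all signals, which understates changes of dim genes. Of 22215 probe sets, 17122 passed the filter. Symbols came from the array's annotation (19065 probe sets with 1 symbol, 1043 with several and 2107 with none), and 9966 genes were tested, each by its brightest probe set. The linear models of limma 3.58.1 (R 4.3.3; lmFit, eBayes with a trend, 16 residual degrees of freedom) covered all 24 arrays and were checked on simulated data. Differences within arrays were tested with exact permutation tests. The members and all 12 other gene lists were chosen with earlier results of these data known. Members called in any comparison are given with values. Of each other list, up to 4 called genes with the largest change in the comparison that called most of its genes are named, besides ALB and TTR. Alternatives were no or a larger pseudocount, quantile normalization, median centring, no or a stricter filter (12 arrays), other probe sets, the replicate number as a block, only the groups compared, and leaving out each array. Same-numbered arrays did not deviate together (mean correlation 0.0014, against -0.0007 for other pairs), so the numbers were not taken as pairs. Figures used matplotlib 3.10.9 in Python 3.11.15.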

Additional observations from a re-analysis of the deposited data

How the results depend on the processing

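The replicate number as a block left all 22 counts of called genes and all 70 named changes on the same side of the threshold (SERPINH1 at 8 h 4.56, adjusted p = 1.1e-14), and no filter moved no count by over 1.5 times. With no pseudocount 1 gene was lower at 8 h, against 2. With a pseudocount of 73.8 the counts were 0 higher at 1 h, 0 lower at 4 h, 1 lower at 12 h, 2 higher at 24 h and 1 changed from 4 to 8 h. Quantile normalization gave 0 lower at 4 h. Centring each array on its median shifted every change against 0 h upward by 0.05 to 0.28 on the log2 scale. It gave 0, 1, 2 and 3 lower at 4, 8, 12 and 16 h, and 5 higher at 48 h. The stricter filter gave 0 lower at 4 h and 1 changed from 4 to 8 h. Averaging a gene's probe sets gave 3 higher and 3 lower at 24 h and 1 changed from 4 to 8 h. Fitting only the groups compared gave 0 higher at 1 h, 0 lower at 4 h and 1 changed from 4 to 8 h. The causes of these differences were not tested.

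Another probe set turned the sign of BMP1 from 1 to 4 h (-0.90), COL4A1 at 16 h (-0.39) and COL6A1 at 16, 24 and 48 h (0.87, 0.61 and 0.52). Leaving out 1 array at a time gave 4 to 5 higher and 0 to 2 lower at 8 h, 0 to 1 lower at 1 and 4 h, 3 to 5 lower at 12 h (3 without 0 h replicate 2), 5 to 7 lower at 16 h, 2 to 5 higher and 4 to 6 lower at 24 h, 3 to 4 higher and 4 to 5 lower at 48 h, 14 to 18 by the F-test, 4 to 6 changed from 1 to 4 h, 1 to 2 from 4 to 8 h, 0 to 1 from 24 to 48 h and 4 to 7 from 4 to 48 h. The 24 h count fell to 2 higher without 0 h replicate 3 or 24 h replicate 2, and the 8 h count to 0 lower without 0 h replicate 2 or 8 h replicate 2. Of 420 named changes refitted in this way, 348 stayed on the same side of the threshold, 71 lost the call, 1 gained it and 0 reversed. Signals near or below the 40th percentile limit what can be said of COL1A2, COL5A2, COL5A3, COL6A3, COL9A2 and COL10A1. They also limit the sizes of the falls of COL7A1 and COL21A1, whose late signals lay near or below that level.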
